A study of Bos taurus and other sequences with 9 samples.

Results

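Counts on H/ACA box small nucleolar RNAs (snoRNAs) and small Cajal body RNAs (scaRNAs) were examined in cell culture media, in RNA from preparations labelled as extracellular vesicles (EVs). The study's isolation does not separate RNA in vesicles from RNA outside them, so either may be counted. The loci were all snoRNA entries of the small ncRNA tables whose names begin with SNORA, ACA, SCARNA or sca. They numbered 41 of 163 snoRNA loci and of 1361 small ncRNA loci in all, and 0 carried a name beginning with ACA or sca. By name they fell into 28 H/ACA snoRNAs (SNORA), 10 H/ACA scaRNAs, 2 scaRNAs with both box types (SCARNA5 and SCARNA10) and 1 C/D box scaRNA, SCARNA17, which belonged to the set by its name and not by its box type. The 2 loci with most counts were SCARNA17-201 and SCARNA15-201, where 201 is the transcript number in the locus name. The other 39 loci held 71 of 396 counts together.

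Box H/ACA snoRNAs form hairpins that guide the conversion of chosen uridines of ribosomal RNA into pseudouridine, with a shared set of proteins. scaRNAs do the same kind of work in Cajal bodies, where they guide pseudouridylation or 2′-O-methylation of the spliceosomal small nuclear RNAs (snRNAs). Both kinds are nuclear RNAs made mostly from introns, and fragments of them are found in EVs and in serum.

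The study asked how much small ncRNA remains in media after EV depletion of fetal bovine serum (FBS). There were 9 samples, 2 of each FBS-based medium and 1 of a serum-free medium. FBS-1 (Sigma-Aldrich) and FBS-2 (Gibco) were media with untreated serum. UC-dFBS-1 and UC-dFBS-2 were made from these sera by ultracentrifugation, and UF-dFBS-1 and UF-dFBS-2 from the same sera by passage through an ultrafiltration membrane, so a number marks a serum. SBI-dFBS-1 and SBI-dFBS-2 were separate lots of a commercial EV-depleted serum from System Biosciences. StemPRO (Gibco) was a defined medium without serum. All media but StemPRO held serum of Bos taurus, whereas the reads were assigned to human loci of GRCh37, so a count is a read that matched the human sequence. The replicates of an FBS-based medium were different lots of serum. For FBS, UC-dFBS and UF-dFBS the spread between them includes the supplier, whereas both SBI-dFBS lots came from the same supplier.

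The total count on miRNAs and other small ncRNAs ranged from 82513 to 6867736 in the 8 FBS-based samples and was 6679 in StemPRO. snoRNAs received 33 to 395 counts per sample. The spike-in factor, the number of counts that equals 1 unit of the external spike-in RNAs, ranged from 3.78 to 9.04 in FBS, SBI-dFBS and UC-dFBS and was 108 in StemPRO, 55.2 in UF-dFBS-1 and 24.0 in UF-dFBS-2. A spike-in normalized count is the count divided by that factor, so that 1 count was worth 0.265 in SBI-dFBS-2 and 0.00926 in StemPRO. Intervals below are exact 95% Poisson intervals unless named otherwise, and cover counting error only, not the error of the spike-in fit. The study also states that its miRNA-sized spike-ins likely normalize miRNAs more accurately than other small ncRNAs, which were mostly longer.

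SCARNA17-201, the C/D box scaRNA that guides methylation of the U4 and U12 snRNAs, lies on GRCh37 chromosome 18 from 47340503 to 47340646 on the plus strand (144 nt). Of the 41 loci, it alone had 10 or more counts in UF-dFBS or in StemPRO. FBS-1 and FBS-2 had 3 and 2 raw counts of it, SBI-dFBS-1 and SBI-dFBS-2 had 7 and 0, UC-dFBS-1 and UC-dFBS-2 had 4 and 7, UF-dFBS-1 and UF-dFBS-2 had 42 and 11, and StemPRO had 101. After division by the spike-in factor, FBS-1 and FBS-2 were at 0.619 and 0.268, SBI-dFBS-1 and SBI-dFBS-2 at 0.774 and 0, UC-dFBS-1 and UC-dFBS-2 at 0.612 and 1.03, UF-dFBS-1 and UF-dFBS-2 at 0.760 and 0.458, and StemPRO at 0.935. Raw counts of SCARNA17-201 were thus highest in the samples with the highest spike-in factors, whereas after normalization the media overlapped. Among the 8 samples with a count, the highest raw count was 50.5 times the lowest and the highest normalized count was 3.82 times the lowest. In SBI-dFBS-2, the sample with a count of 0, a floor of 3 counts equals 0.794, a value above most of the other samples, so that its level there cannot be told from theirs at this depth.

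By medium, the spike-in normalized count of SCARNA17-201 averaged 0.444 ± 0.248 for FBS, 0.819 ± 0.293 for UC-dFBS, 0.609 ± 0.214 for UF-dFBS and 0.387 ± 0.547 for SBI-dFBS (SD, n = 2 each), against 0.935 for the single StemPRO sample. In the order SBI-dFBS, FBS, UF-dFBS, UC-dFBS and StemPRO, from low to high, neighbours differed by less than the spread between replicates. For a comparison on the log2 scale, the 0 of SBI-dFBS-2 was set to 1 count, which equals 0.265. The mean of UF-dFBS then differed from that of the other 6 FBS-based samples by 0.16 (exact two-sided permutation test, p = 0.929). The smallest p the design allows is 0.0714, so that the test could not pass 0.05. Other values for that 0 were not tried, so the sign of this difference is not to be read. With the same setting, the difference was 2.73 on raw counts (exact permutation p = 0.0714), on which the groups did not overlap. It was 4.42 on shares of all counts (exact permutation p = 0.143). Among the FBS-based samples SCARNA17-201 reached 10 counts only in UF-dFBS, and the set was chosen with earlier results known. No conclusion is drawn from these p-values. On the spike-in scale, 53 counts in UF-dFBS against 23 in the other 6 samples, pooled, gave a ratio of 1.12 (95% interval 0.674 to 1.91). The comparator pools 3 media, so this ratio is not that of UF-dFBS to the serum it was made from.

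Within a serum the values of SCARNA17-201 rested on few counts in FBS. UF-dFBS was at 1.23 times FBS in the Sigma-Aldrich serum (42 against 3 counts, 95% interval 0.392 to 6.19) and at 1.71 times FBS in the Gibco serum (11 against 2 counts, 0.373 to 15.8). UC-dFBS was at 0.988 times FBS in the Sigma-Aldrich serum (4 against 3 counts, 0.167 to 6.74) and at 3.82 times FBS in the Gibco serum (7 against 2 counts, 0.728 to 37.7). All 4 intervals hold 1.

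StemPRO contains no serum, yet the spike-in normalized count of SCARNA17-201 there was as high as in the media with serum. The StemPRO value lay within the counting interval of 7 of the 8 FBS-based samples, the exception being UF-dFBS-2. Against both FBS samples pooled, the ratio was 2.30 (101 against 5 counts, 95% interval 0.953 to 7.23), and against all 8 FBS-based samples pooled it was 1.45 (101 against 76 counts, 1.06 to 1.98). This second interval lies above 1, but the StemPRO value was below that of UC-dFBS-2, and with 1 StemPRO sample there is no test between media.

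Most other RNAs of StemPRO lay far below FBS. Among 189 RNAs with at least 10 counts in StemPRO (166 small ncRNA loci and 23 miRNAs), the median spike-in normalized level was 0.00565 times that in FBS, with FBS set to at least 3 counts per sample. SCARNA17-201 had the highest of these ratios, 1.83 on that floored scale, the next being at 0.652. Without the floor, 15 RNAs were at or above the FBS mean, 14 of them with at most 3 counts in both FBS samples together, so the place of SCARNA17-201 in this order depends on the floor. By raw counts it was the third of all small ncRNA loci in StemPRO. A high raw count in StemPRO was not particular to it, as 38 of 166 small ncRNA loci with at least 10 counts there had their highest raw count in that sample.

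**Figure D1:**
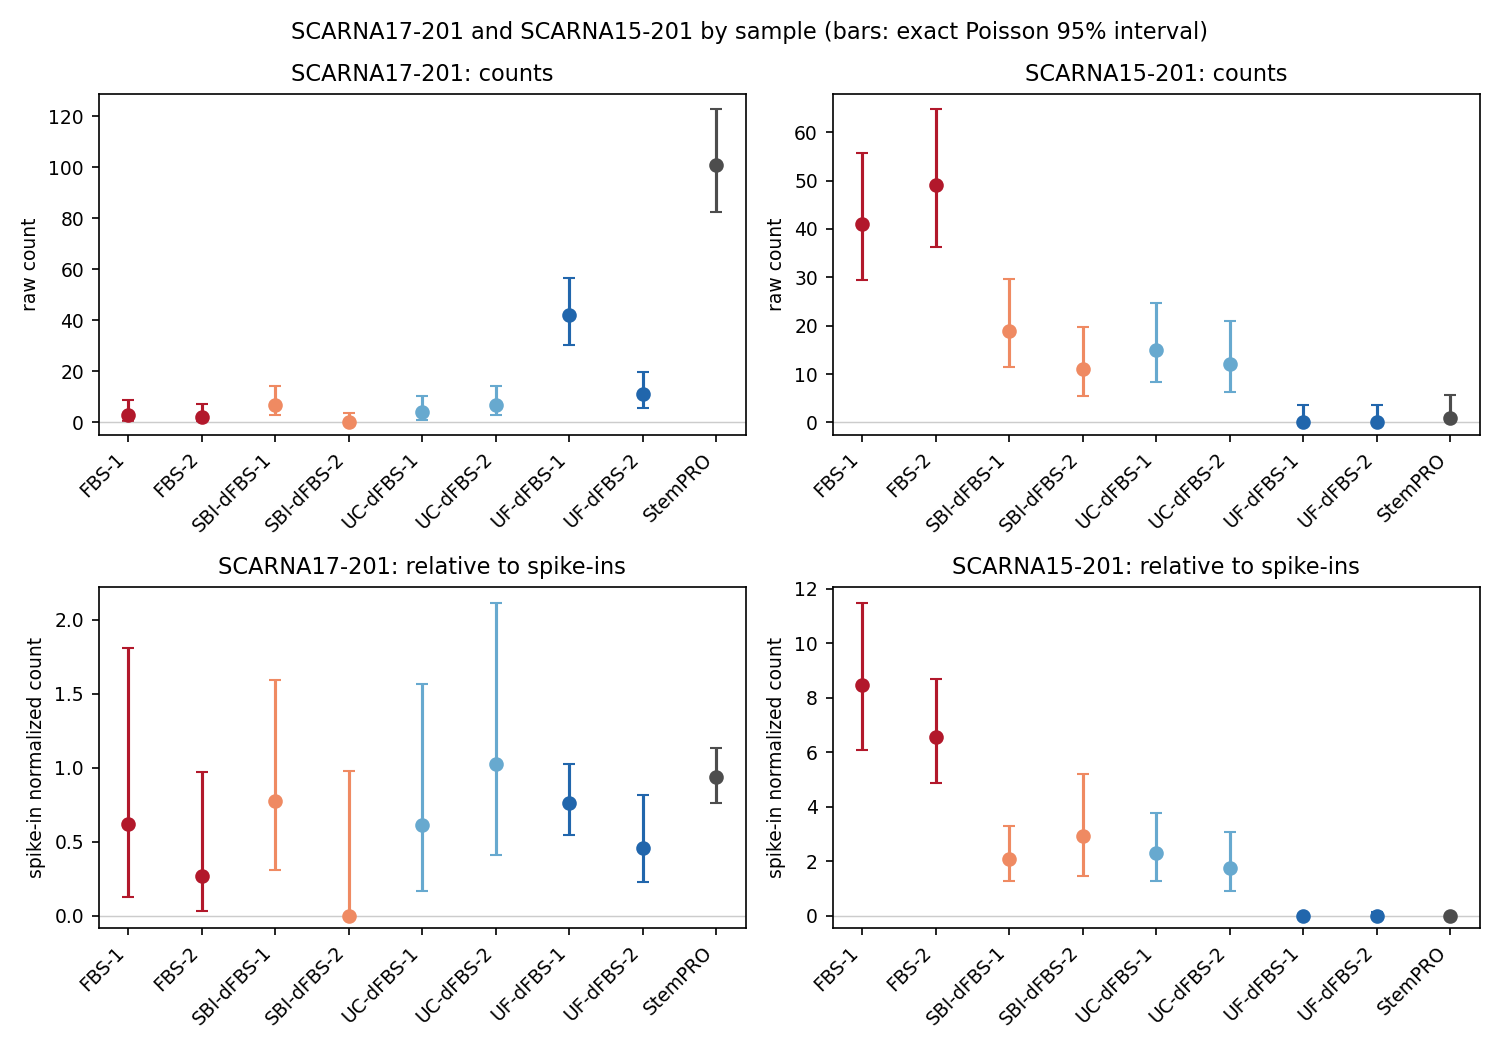
Counts (top) and spike-in normalized counts (bottom) of SCARNA17-201 (left) and SCARNA15-201 (right) in each of the 9 samples; points are samples, coloured by medium, and bars are exact 95% Poisson intervals. SCARNA17-201 rises to 42 and 101 in counts but stays between 0 and 1.03 after normalization, and SCARNA15-201 is highest in FBS and at 0 in both UF-dFBS samples on both scales.

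SCARNA15-201, an H/ACA scaRNA also known as ACA45, which guides pseudouridylation of the U2 snRNA and gives rise to a small RNA that acts like a miRNA, lies on GRCh37 chromosome 15 from 83424697 to 83424823 on the plus strand (127 nt). It was highest in untreated FBS, lower in SBI-dFBS and UC-dFBS, and without a count in UF-dFBS. FBS-1 and FBS-2 had 41 and 49 raw counts of it, SBI-dFBS-1 and SBI-dFBS-2 had 19 and 11, UC-dFBS-1 and UC-dFBS-2 had 15 and 12, both UF-dFBS samples had 0, and StemPRO had 1. As spike-in normalized counts, FBS-1 and FBS-2 were at 8.46 and 6.57, SBI-dFBS-1 and SBI-dFBS-2 at 2.10 and 2.91, UC-dFBS-1 and UC-dFBS-2 at 2.29 and 1.76, both UF-dFBS samples at 0 and StemPRO at 0.00926. Both FBS samples lay above all others, SBI-dFBS and UC-dFBS overlapped each other, and UF-dFBS lay below all other FBS-based samples.

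The mean spike-in normalized count of SCARNA15-201 was 7.52 ± 1.34 for FBS, 2.03 ± 0.379 for UC-dFBS and 2.51 ± 0.574 for SBI-dFBS (SD, n = 2 each). The ratio of means to FBS was 0.333 ± 0.0966 for SBI-dFBS and 0.270 ± 0.0695 for UC-dFBS (propagated SD). Within the same serum, UC-dFBS was at 0.271 times FBS for Sigma-Aldrich (95% interval 0.139 to 0.50) and at 0.268 times FBS for Gibco (0.130 to 0.510). Both intervals lie below 1, but they are wide and cover counting error only, with 1 sample on each side. The models below did not call this difference. For comparison, the other 122 snoRNA loci were at 0.551 and 0.465 times FBS in the same sera.

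In UF-dFBS a count of 0 allows up to 3 counts per sample, equal to 0.0543 in UF-dFBS-1 and 0.125 in UF-dFBS-2. Set against these floors, with the FBS value taken as measured, SCARNA15-201 was at least 156-fold lower than in FBS in the Sigma-Aldrich serum and at least 52.6-fold lower in the Gibco serum. The exact 95% intervals of the ratios, which include the counting error of both samples, reach wider, up to 0.00826 times FBS for Sigma-Aldrich and up to 0.0243 times FBS for Gibco. The higher floor is below the lowest value of the other FBS-based samples by 14.1-fold. The mean log2 level of UF-dFBS, with zeros set to 1 count, was 6.92 below that of the other 6 FBS-based samples (exact two-sided permutation test, p = 0.0714, the smallest the design allows). As a share of all counts, with zeros again set to 1 count, the log2 difference was -2.67 with exact permutation p = 0.357. The samples overlapped on that scale only through this setting. The measured shares were 0 in both UF-dFBS samples and above 0 in the other 6 FBS-based samples. StemPRO, with 1 count, was at 0.00126 times FBS (95% interval 3.17e-05 to 0.00723).

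Relative to length, the level in FBS was 5.92 per 100 nt for SCARNA15-201 and 0.308 per 100 nt for SCARNA17-201, in spike-in normalized counts. In UF-dFBS the order was the opposite, with 0 for SCARNA15-201 and 0.423 per 100 nt for SCARNA17-201. In StemPRO these levels were 0.00729 and 0.649 per 100 nt. Whether reads covered the whole RNA or a fragment of it was not analysed here.

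The 2 RNAs were also set against all small ncRNA loci in models of the counts with edgeR, scaled to the spike-ins. Loci with at least 10 counts in at least 2 of 8 FBS-based samples entered, which were 363 loci and only 2 of the 41, and SCARNA17-201 passed only through its counts of 42 and 11 in UF-dFBS. In the quasi-likelihood test with Benjamini-Hochberg adjustment, 0 of 363 loci (0%) were called for SBI-dFBS against FBS, 0 (0%) for UC-dFBS and 0 (0%) for UF-dFBS, and accordingly 0 of the 2. At an unadjusted p under 0.05 there were 4, 12 and 108 loci, respectively. For SCARNA15-201 the edgeR log2 fold change was -9.79 for UF-dFBS (adjusted p = 0.0824), -1.89 for UC-dFBS (adjusted p = 0.989) and -1.59 for SBI-dFBS (adjusted p = 0.970). The first of these is fitted against samples without a count, and its size depends on the prior count. The median log2 fold change of all 363 loci was -3.63 for UF-dFBS, -0.87 for UC-dFBS and 1.11 for SBI-dFBS.

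With serum as replicate block, in the 6 samples of FBS, UC-dFBS and UF-dFBS, SCARNA15-201 was called lower in UF-dFBS (edgeR log2 fold change -10.10, adjusted p = 4.99e-10), among 213 of 322 loci (66.1%), all called lower. With the same block, 8 of 322 loci (2.48%) were called for UC-dFBS, and SCARNA15-201 was not among them (adjusted p = 0.332). DESeq2 with spike-in size factors also called SCARNA15-201 lower in UF-dFBS (adjusted p = 6.24e-05), among 135 of 363 loci (37.2%), all lower. It was called as well by DESeq2 with its own size factors, as the only locus of 363 (0.275%), and by edgeR without the filter on low counts, among 47 of 1271 loci (3.7%). In the fit without a block its fitted value was the lowest of all 363 loci, but this rank rests on counts of 0 and on the prior count. The exact intervals of its ratio to FBS reach up to 0.00826 and 0.0243 in the 2 sera. U11 snRNA, with 22 and 15 counts in UF-dFBS, was at 0.00224 and 0.00546 times FBS, below these limits. The level of SCARNA15-201 thus cannot be ranked as the lowest. SCARNA15-201 lay below both FBS samples in both samples of SBI-dFBS, UC-dFBS and UF-dFBS. Such an order without overlap was found for 19 of 363 loci (5.23%) for SBI-dFBS, 70 (19.3%) for UC-dFBS and 182 (50.1%) for UF-dFBS.

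SCARNA17-201 entered these models only through its counts in UF-dFBS, so its fitted values are given as a description. Its edgeR log2 fold change against FBS was 0.49 for UF-dFBS, 0.90 for UC-dFBS and -0.0047 for SBI-dFBS. The value for UF-dFBS depended on the scaling, and was 4.65 with TMM and 4.91 with the size factors of DESeq2. It did not lie below both FBS samples in any depleted medium.

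**Figure D2:**
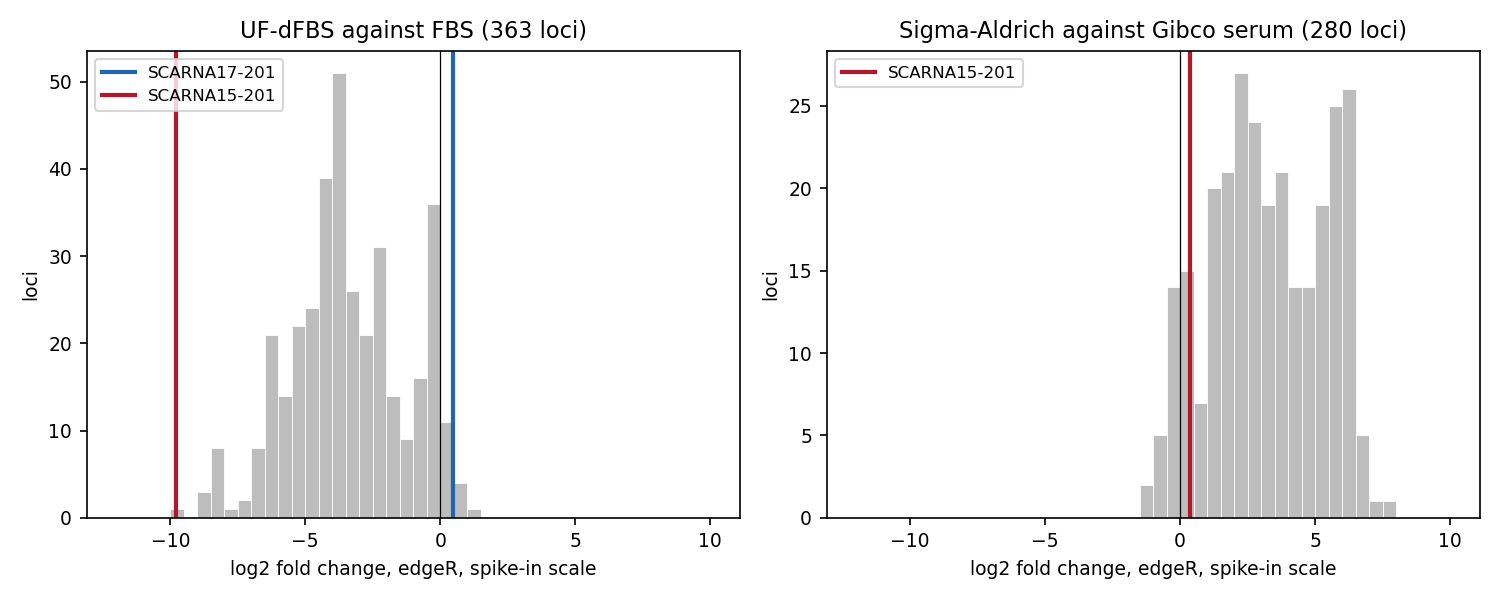
Distribution of edgeR log2 fold changes on the spike-in scale over all loci tested (grey bars, number of loci) for UF-dFBS against FBS (left, 363 loci) and for Sigma-Aldrich against Gibco serum (right, 280 loci), with SCARNA17-201 and SCARNA15-201 as vertical lines. In UF-dFBS, SCARNA15-201 is at the lowest fitted value, -9.79, which rests on samples without a count and depends on the prior count. SCARNA17-201, which entered only through its counts in UF-dFBS, is at 0.49, against a median of -3.63. Between the sera SCARNA15-201 is at 0.36 against a median of 3.13.

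Between the sera the level of SCARNA15-201 was nearly equal on the spike-in scale in FBS and UC-dFBS. UF-dFBS had no count of it with either serum and gave no ratio. Most loci tested were higher in the Sigma-Aldrich serum, but such closeness was not particular to SCARNA15-201. In spike-in normalized totals of FBS, Sigma-Aldrich was at 174 against 135 for Gibco on U2 snRNA. U12 stood at 79.1 against 70.2 and U1 at 79.7 against 73.2. The other 122 snoRNA loci gave 65.9 against 45.1 and U11 gave 178 against 114. Gaps were wider for U4 (557 against 6.71), U5 (2.68 against 0.671) and U6 (9.08 against 4.70). FBS-1 (Sigma-Aldrich) was at 1.29 times FBS-2 (Gibco) for SCARNA15-201 (95% interval 0.829 to 1.99), and UC-dFBS-1 at 1.30 times UC-dFBS-2 (0.570 to 3.05). In the edgeR model of 6 samples with medium and serum, 174 of 280 loci (62.1%) were called, all higher in the Sigma-Aldrich serum. This count varied with the samples kept and with the model, and was 0 of 280 when medium was left out of the model. It was 10 of 192 loci (5.21%) without FBS-1, 74 of 257 (28.8%) without FBS-2 and 81 of 208 (38.9%) without UC-dFBS-1. It was 151 of 265 (57%) without UC-dFBS-2, 117 of 208 (56.2%) without UF-dFBS-1 and 185 of 277 (66.8%) without UF-dFBS-2. Of the 41 loci SCARNA15-201 alone entered the edgeR model with medium and serum, and it was not called (log2 fold change 0.36, adjusted p = 0.699). The median log2 fold change of the 280 loci was 3.13, and 245 of them had a larger value than SCARNA15-201. Its position below the median held under other scalings, but its sign did not: with TMM scaling the median was -0.58 and SCARNA15-201 was at -2.75 (edgeR adjusted p = 0.0380, 84 of 280 loci or 30% called, 19 of them higher), and with DESeq2 size factors the median was 0.02 and SCARNA15-201 was at -2.57 (adjusted p = 0.0153, 147 loci or 52.5% called, 89 of them higher). For SCARNA17-201 the ratio of Sigma-Aldrich to Gibco was 2.31 for FBS (3 against 2 counts, 95% interval 0.264 to 27.6), 0.596 for UC-dFBS (0.128 to 2.35) and 1.66 for UF-dFBS (0.840 to 3.58), with intervals that all hold 1.

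The other 9 H/ACA scaRNAs held few counts. SCARNA11-201 (chromosome 12, 6690640 to 6690775, minus strand) had 4 counts in SBI-dFBS-1, 1 in SBI-dFBS-2 and 1 in FBS-1, and was the third locus of the set in SBI-dFBS with a mean spike-in normalized count of 0.354. SCARNA23-201 had 2 counts each in FBS-1 and UC-dFBS-1 and 1 in SBI-dFBS-2. SCARNA13-201 (chromosome 14, 95999692 to 95999966, minus strand), which had no count in FBS, had 1 in SBI-dFBS-2, 2 in UF-dFBS-2 and 1 in StemPRO. Only the 4 counts of SCARNA11-201 exceeded 3, so no order of media can be read from them. Summed over the 9 loci, the spike-in normalized count was 0.753 ± 0.686 for FBS, 0.674 ± 0.171 for SBI-dFBS, 0.153 ± 0.216 for UC-dFBS, 0.0507 ± 0.0461 for UF-dFBS (SD, n = 2 each) and 0.0278 for StemPRO, and it rested on 0 to 6 counts per sample. SCARNA10-201, which carries out both kinds of modification on the U5 snRNA, had 1 count in FBS-1, and SCARNA5-201 had 1 count in UF-dFBS-1.

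The 28 H/ACA snoRNAs belong to a class that mostly guides modification of ribosomal RNA. They received 11 and 6 counts in the FBS samples, with sample 1 given first, and 5 and 0 in the SBI-dFBS samples. They had 4 and 3 in the UC-dFBS samples, 11 and 3 in the UF-dFBS samples, and 2 in StemPRO. None of the 28 reached 3 counts in a sample. Their summed spike-in normalized count was 1.54 ± 1.04 for FBS, 0.276 ± 0.391 for SBI-dFBS, 0.526 ± 0.122 for UC-dFBS and 0.162 ± 0.0525 for UF-dFBS (SD, n = 2 each), and 0.0185 for StemPRO. The value of UF-dFBS was at 0.0877 times FBS in the Sigma-Aldrich serum and at 0.155 times FBS in the Gibco serum. The number of counts in UF-dFBS-1 equalled that in FBS-1, with a spike-in factor of 55.2 against 4.84.

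The leading H/ACA snoRNAs of each medium were known by 1 or 2 counts. SNORA7B-201 and SNORA81-201 had 2 counts each in FBS-1, and SNORA81-201 had 2 more in UF-dFBS-1. SNORA64-201 (U64) had 2 counts each in UC-dFBS-1 and UF-dFBS-1, and SNORA32-201 had 2 in UC-dFBS-1. In UF-dFBS-2, SNORA3-201, SNORA70D-201 and SNORA73B-201 had 1 count each, the last of which belongs to the U17 family that acts in cleavage of the ribosomal RNA precursor. SNORA14B-201 had the most counts of the 28, with 1 in FBS-1, 1 in FBS-2, 1 in SBI-dFBS-1 and 2 in UC-dFBS-2. In StemPRO the 6 loci with a count beside SCARNA17-201 had 1 count each and were SCARNA13-201, SCARNA15-201, SCARNA16.4-201, SCARNA21-201, SNORA40.3-201 and SNORA53-201.

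Across the set, 26 of 41 loci had a single count in all 9 samples together, and 28 had counts in 1 sample only. At least 1 count was seen for 21 loci of the FBS media, 16 of UF-dFBS, 11 of SBI-dFBS, 7 of UC-dFBS and 7 of StemPRO. These numbers moved with depth. At 82513 counts, the total of UF-dFBS-2, the expected number of loci with a count was 1.00 and 2.33 for FBS-1 and FBS-2, 0.611 and 0.183 for the SBI-dFBS samples, 0.527 and 1.43 for the UC-dFBS samples, and 0.554 for UF-dFBS-1, against 5 observed in UF-dFBS-2. The loci were 121 to 330 nt long (median 136), 6 were named as further copies of a family, such as SNORA81.1-201, and reads of near-identical copies may be divided among them in a way the files do not show. Some lie near each other in the genome, such as SNORA81-201 and SNORA63-201 on chromosome 3 from 186504464 to 186505220, with a gap of 447 nt.

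**Figure D3:**
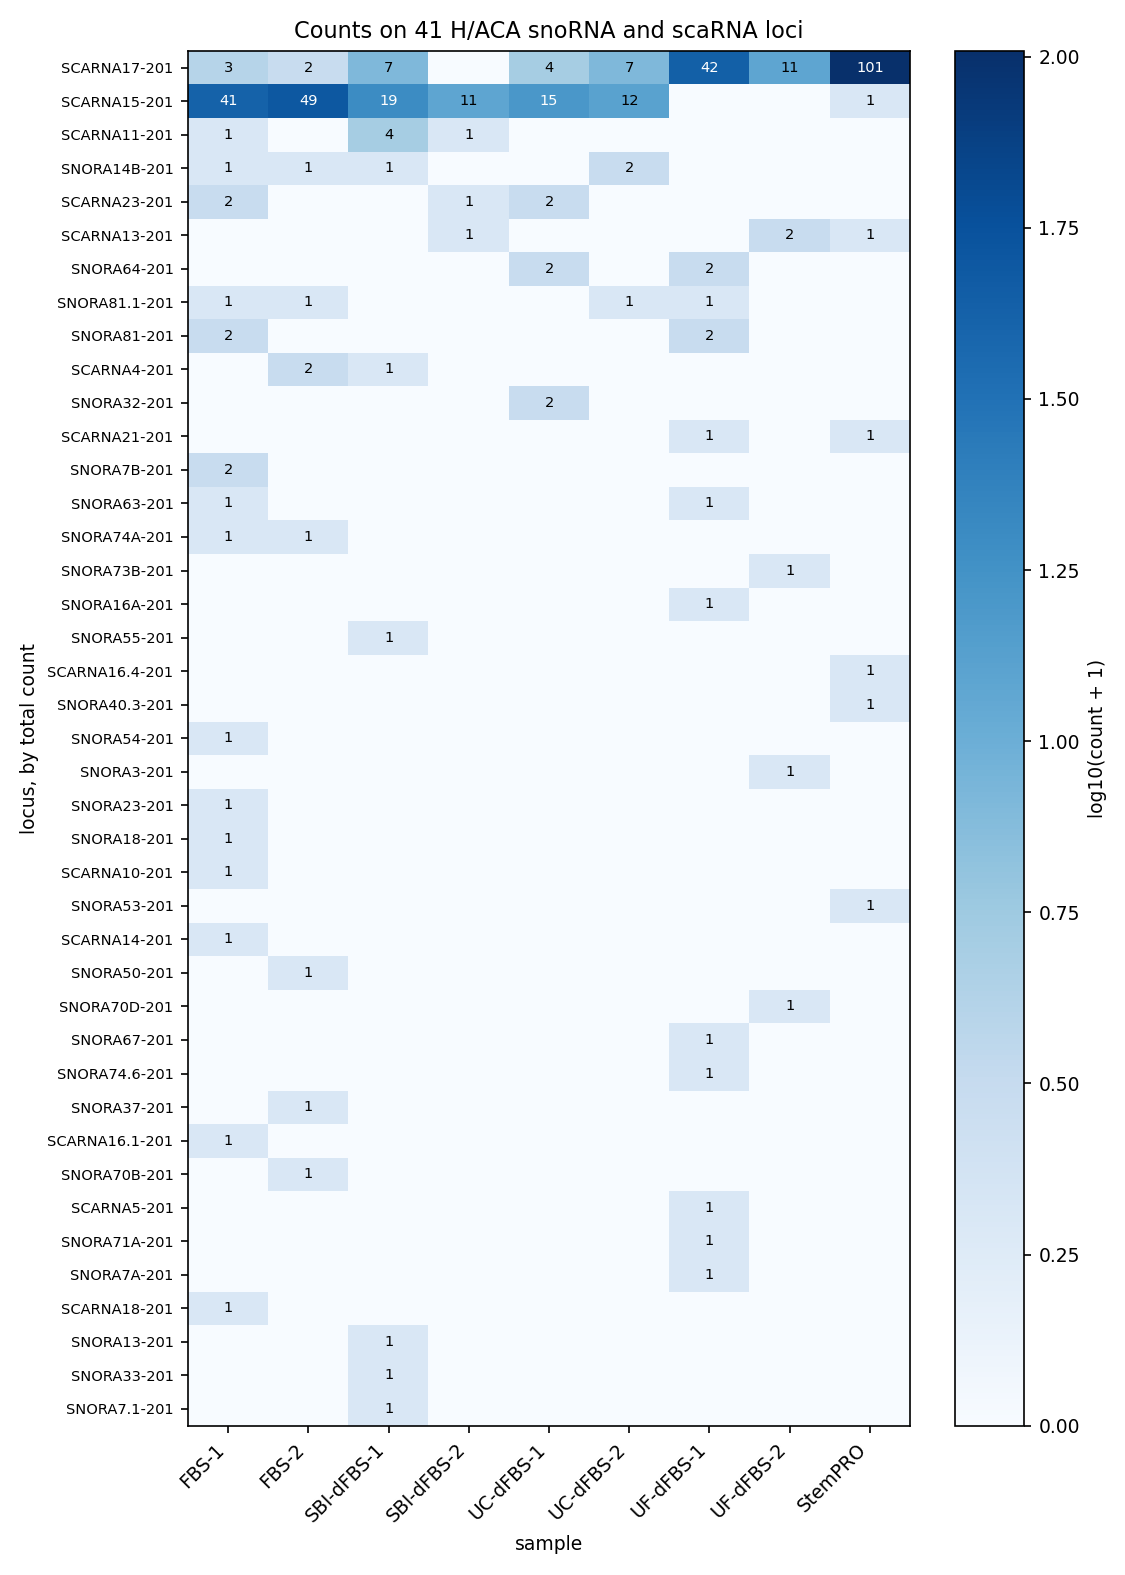
Counts of all 41 loci (rows, by total count) in the 9 samples (columns); colour gives log10(count + 1), the count is written in each cell, and an empty cell is a count of 0. Apart from SCARNA17-201 and SCARNA15-201 no locus exceeds 4 counts in a sample.

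Summed over all 41 loci, the spike-in normalized count was 12.8 and 7.91 for FBS-1 and FBS-2, 3.98 and 3.71 for the SBI-dFBS samples, 3.82 and 3.22 for the UC-dFBS samples, 0.996 and 0.666 for the UF-dFBS samples, and 0.990 for StemPRO. The ratio to FBS was 0.371 ± 0.125 for SBI-dFBS, 0.340 ± 0.121 for UC-dFBS and 0.0802 ± 0.0350 for UF-dFBS (propagated SD, n = 2 each), and 0.0956 for StemPRO. Within the same serum, UF-dFBS was at 0.0778 times FBS for Sigma-Aldrich and at 0.0842 times FBS for Gibco. SCARNA15-201 made up most of this sum in the FBS, UC-dFBS and SBI-dFBS samples, and SCARNA17-201 most of it in UF-dFBS and StemPRO. Without SCARNA17-201 the ratio to FBS was 0.0224 for UF-dFBS and 0.00560 for StemPRO, so that most of the level there was that of a single RNA. For comparison, the other 122 snoRNA loci reached 0.656 of FBS for SBI-dFBS, 0.516 for UC-dFBS, 0.0473 for UF-dFBS and 0.00701 for StemPRO.

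The make-up of the snoRNA counts changed accordingly. The 41 loci held 16.3% of snoRNA counts in FBS-1 (Wilson 95% interval 12.9 to 20.3), 14.9% in FBS-2 (11.8 to 18.8), 10.6% and 8.64% in the SBI-dFBS samples, and 9.54% and 13.3% in the UC-dFBS samples. They held 71.8% in StemPRO (64.1 to 78.4), 48.5% in UF-dFBS-2 (32.5 to 64.8) and 18.0% in UF-dFBS-1 (14.1 to 22.7). SCARNA17-201 alone held 67.8% of snoRNA counts in StemPRO, 33.3% in UF-dFBS-2 and 13.7% in UF-dFBS-1, and at most 4.24% elsewhere. Without it, the other 40 loci held 12.5% in StemPRO. UF-dFBS-2 had only 33 snoRNA counts, and its interval is wide.

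**Figure D4:**
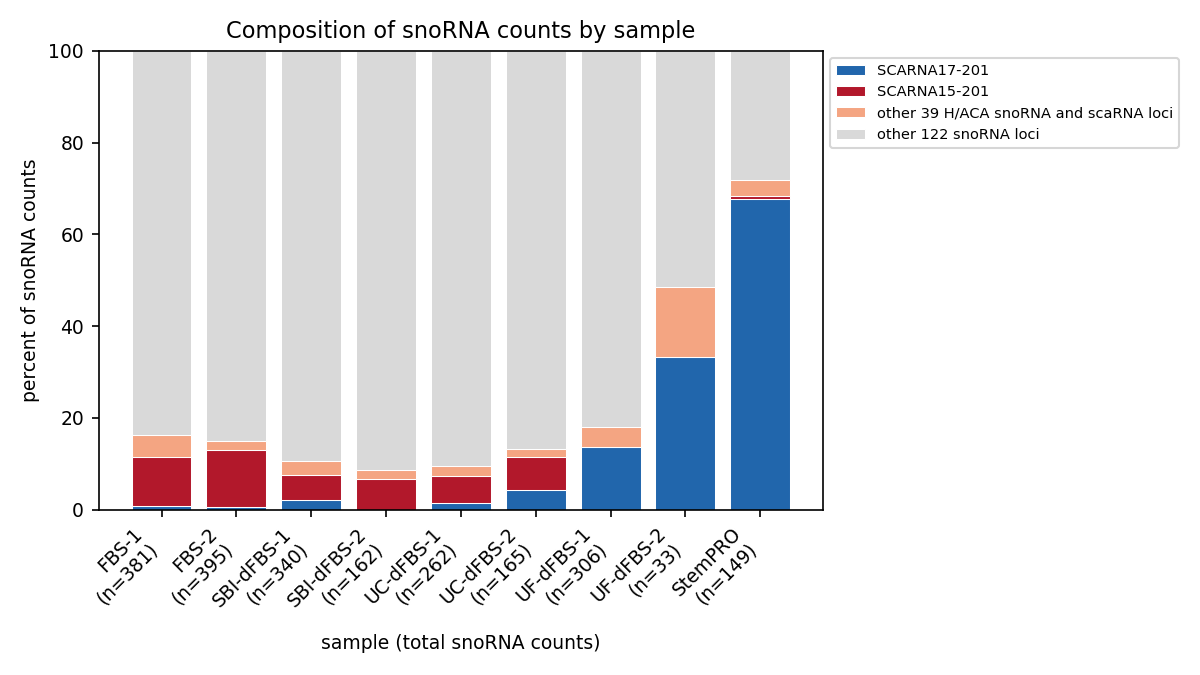
Share of the snoRNA counts of each sample (bars, percent; total snoRNA counts in brackets) held by SCARNA17-201, SCARNA15-201, the other 39 H/ACA snoRNA and scaRNA loci, and the other 122 snoRNA loci. SCARNA17-201 grows from under 1% in FBS to 33.3% in UF-dFBS-2 and 67.8% in StemPRO, and SCARNA15-201 has no count in either UF-dFBS bar.

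The snRNAs that these scaRNAs modify were summed over all loci annotated to each of them. U12, a target of SCARNA17-201, was at 0.0211 times FBS in UF-dFBS from the Sigma-Aldrich serum, at 0.0231 times FBS in that from the Gibco serum, and at 0.00124 times FBS in StemPRO. U4, its other target, was at 0.929 and 1.11 times FBS in UF-dFBS and at 0.000131 times FBS in StemPRO, where it had 4 counts. The level of SCARNA17-201 in StemPRO, 2.11 times the FBS mean, was thus not accompanied by a similar level of either target. U2, a target of SCARNA15-201, was at 0.0256 times FBS in UF-dFBS from the Sigma-Aldrich serum, with 246 counts. In that from the Gibco serum it was at 0.0194 times FBS, with 63 counts. SCARNA15-201 had no count in either. The exact interval of its ratio to FBS reached up to 0.00826 in the Sigma-Aldrich serum, below the ratio of U2. In the Gibco serum it reached up to 0.0243, above the ratio of U2, so SCARNA15-201 cannot be told from U2 there at this depth.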

How the data were processed

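Small ncRNA sequencing data of 9 media samples were used. Libraries carried unique molecular indices (UMIs). The authors trimmed reads with cutadapt 1.11, collapsed those with a full UMI by insert and UMI, added reads with a partial UMI uncollapsed, removed spike-in, ribosomal and mitochondrial reads, and mapped the rest with Bowtie2 2.2.2 to mature miRNAs and then to human GRCh37. The deposited raw counts are such reads per locus, and so not strictly molecules, which the Poisson intervals do not cover. The deposited spike-in normalized values (signal) are counts that the authors divided by the slope from regressing spike-in counts on spike-in concentration with no intercept.

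Counts and normalized values were joined by name and coordinates, and factors were taken from their ratio, which was constant within each sample to 2.31e-06%. Sums, shares, ratios and intervals were computed in python 3.11.15 with scipy 1.17.1. Poisson ratio intervals are exact. The quasi-likelihood test of edgeR 4.0.16 (R 4.3.3) was run over all small ncRNA loci with at least 10 counts in 2 of 8 samples, or in 3 of 6 for the supplier model, with library sizes from the spike-in factors and an adjusted p threshold of 0.05. DESeq2 1.42.0 was an alternative. Scripts were tested on simulated data. Same-numbered samples of FBS, UC-dFBS and UF-dFBS share a serum lot per the study, and their differences between sera correlated over 280 loci (Pearson 0.850 for FBS with UC-dFBS, 0.668 for FBS with UF-dFBS, 0.601 for UC-dFBS with UF-dFBS), so the fit with serum as replicate block is given beside the main fit, which has no block. The permutation tests are unpaired. The set and its groups were chosen with earlier results of these data known. SCARNA17-201, SCARNA15-201, the 3 leading loci of each medium and loci past a threshold or with at least 3 counts in StemPRO were named, and SNORA14B-201, SCARNA5-201, SCARNA10-201 and the close pair were named after their values were seen. Sequences were not used here.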

Additional observations from a re-analysis of the deposited data

Results flagged for a closer look

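SCARNA17-201 was at 1.24 times UC-dFBS in UF-dFBS of the Sigma-Aldrich serum (42 against 4 counts, 95% interval 0.451 to 4.77) and at 0.446 times UC-dFBS in that of the Gibco serum (11 against 7 counts, 0.158 to 1.36). It was singled out because the direction was opposite in the 2 sera. The difference was not tested, and both intervals hold 1.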

How the results depend on the processing

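Of 207 comparisons of a value with its alternative, 167 kept their direction and their side of the threshold or moved by less than the replicate spread. Many of the 167 were numbers of loci called that stayed at 0, where the filter let at most 2 of the 41 loci enter. For log2 changes the size was not judged, so that of SCARNA17-201 in UF-dFBS, 0.49 and then 4.91, was among the 167. In UF-dFBS against FBS, the number of the 41 loci called rose from 0 to 1 (SCARNA15-201) with the replicate block, with DESeq2 under either scaling and without a filter on low counts, and was 0 with TMM and without each replicate. Between the suppliers it rose from 0 to 1 with TMM (SCARNA15-201 at -2.75) and with DESeq2 size factors (-2.57), both reversed in sign. The log2 change of SCARNA17-201 in SBI-dFBS reversed to 0.048 without a filter and ranged from -5.78 (without SBI-dFBS-1, the other sample of that medium having a count of 0) to 0.82 when each replicate was left out, and that in UF-dFBS ranged from -0.017 (without FBS-2) to 1.17 (without FBS-1), a lone sample being assumed to vary like the other groups; it was 4.65 with TMM and 4.91 with DESeq2 size factors. Its difference between UF-dFBS and the other media ranged from -0.20 to 0.53 when either UF-dFBS sample was left out. The replicate block changed no other call among the 41 loci. Over all loci, DESeq2 with its own size factors called 1 of 363 for SBI-dFBS, where the main test called 0.

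The summed ratio to FBS depended on the scale. For UF-dFBS it was 0.587 in raw counts, 1.78 as a share of all counts and 0.0224 without SCARNA17-201. For StemPRO it was 1.77, 283 and 0.00560, respectively, and for SBI-dFBS 0.0929 as a share. Per sample, the mean number of loci detected was 13, 6.5, 4.5, 8.5 and 7 in FBS, SBI-dFBS, UC-dFBS, UF-dFBS and StemPRO. With at least 3 counts it was 1.5, 2, 2, 1 and 1, with at least 10 counts 1 in each, and thinned to the smallest FBS-based total 1.67, 0.397, 0.977 and 2.78 in the FBS-based media. The share in snoRNA counts of StemPRO was 12.5% without SCARNA17-201 and 81.7% with loci of identical counts counted once, which joins most loci with 1 count. Depth limits the 39 minor loci, and the error of the spike-in fit was not analysed here.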
